A study of Mus musculus with 11 samples.

Results

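The nuclear receptor PPAR-alpha and 7 of its classical targets in fatty acid oxidation were followed in mouse liver. The 8 genes are Ppara, Pdk4, Cpt1a, Angptl4, Vnn1, Cyp4a10, Cyp4a14 and Ehhadh. They were chosen by symbol: every probe of the deposited bead array table whose symbol is one of these 8 was taken, and a gene was kept where 2 or more of the 11 arrays gave a probe a detection p-value below 0.05. Of the 8 genes, 7 have a probe under their symbol (10 probes), and 5 passed with 1 probe each, among 15469 genes tested and 21485 of 45281 probes past the same rule.

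Livers came from male C57BL/6J mice, given in the labels as 8 weeks old in every group. There were 4 groups: obese mice with FXR-K217R (3 arrays), obese mice with FXR-WT (3 arrays), lean mice with FXR-K217Q (3 arrays) and lean mice with FXR-WT (2 arrays). Sample titles mark the obese mice HFD and the lean mice ND, letters that the labels do not spell out, and any difference in diet cannot be told apart from obesity. FXR is the nuclear receptor for bile acids, and the constructs reached the liver by adenovirus. In FXR-K217Q a lysine is replaced by glutamine, which resembles acetylated lysine, and in FXR-K217R by arginine, which cannot be acetylated. All mice, those with FXR-WT included, were infected and 1 week later were given the synthetic FXR agonist GW4064 overnight, 30 mg/kg in oil, before tissue was taken. No group without virus or without agonist was analysed here, no source states that the mice lacked their own FXR gene, and the hour of collection and the feeding state are not known here. The labels do not say that replicates are separate animals, so the tests see only how these samples vary, which may be technical.

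PPAR-alpha is a lipid sensor that pairs with RXR on DNA and, in fasting, turns on the genes by which hepatocytes import, activate and burn fatty acids and make ketone bodies. Carnitine shuttle proteins carry long-chain fatty acids into mitochondria, where the beta-oxidation enzymes shorten them. Peroxisomes shorten the longest chains, and cytochromes P450 of the CYP4A family oxidise the omega end. FXR, which bile acids activate after a meal, and PPAR-alpha are known to act on some of the same hepatic genes.

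Promoters of 3 of the 5 measured genes, the receptor itself and 2 of its targets, are in the RefSeq table of assembly GRCm38.p6 and are shown for that reason. These 3 genes lay above lean FXR-WT on every obese FXR-WT array, as did 16.7% of all genes. So did Angptl4, which has no promoter entry there. Each runs from 250 bases before the annotated start to 50 bases after it, read 5′ to 3′ on the gene's strand, and the capitals mark the 50 bases from the start onward. Ppara lies at chr15:85735526-85735825 on the plus strand, Pdk4 at chr6:5496229-5496528 on the minus strand and Ehhadh at chr16:21787785-21788084 on the minus strand.
Ppara: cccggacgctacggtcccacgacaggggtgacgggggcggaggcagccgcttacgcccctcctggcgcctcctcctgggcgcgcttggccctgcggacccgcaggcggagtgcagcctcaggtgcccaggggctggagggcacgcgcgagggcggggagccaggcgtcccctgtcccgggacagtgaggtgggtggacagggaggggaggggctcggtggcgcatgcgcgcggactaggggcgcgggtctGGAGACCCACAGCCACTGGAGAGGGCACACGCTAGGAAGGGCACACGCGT
Pdk4: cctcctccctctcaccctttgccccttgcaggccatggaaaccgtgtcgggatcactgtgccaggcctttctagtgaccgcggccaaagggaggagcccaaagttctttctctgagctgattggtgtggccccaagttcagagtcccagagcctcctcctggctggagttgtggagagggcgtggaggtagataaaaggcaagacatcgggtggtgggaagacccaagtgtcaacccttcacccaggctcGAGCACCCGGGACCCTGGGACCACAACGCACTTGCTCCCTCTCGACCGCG
Ehhadh: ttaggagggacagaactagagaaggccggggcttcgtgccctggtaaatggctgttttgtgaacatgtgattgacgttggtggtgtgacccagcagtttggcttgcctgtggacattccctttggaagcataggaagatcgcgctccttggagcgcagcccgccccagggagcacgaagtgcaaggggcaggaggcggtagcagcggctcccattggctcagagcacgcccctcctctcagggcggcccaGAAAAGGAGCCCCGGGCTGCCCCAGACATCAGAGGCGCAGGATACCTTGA
The letters AGGTCA, the half-site of many nuclear receptors, occur on neither strand of these 3 windows, whereas 16.3% of all 32851 promoters in the table hold them. The direct repeat AGGTCANAGGTCA (PPAR with RXR), which contains AGGTCA, is in 0.0396% of promoters, the inverted repeat AGGTCANTGACCT (FXR with RXR) in 0.00913%, the D-box TTATGTAA in 0.938% and the E-box CACGTG in 7.15%. None of these is in the 3 windows. A missing match says only that these letters are not in these 300 bases.

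Between 18263 and 19500 probes were detected per array, with a mean of 41.9 to 44.0 beads per probe. The number of arrays, 2 or 3 a group, limits the precision. The hepatocyte genes Alb, Ttr, Apoa1 and Cps1 were detected on all 11 arrays, and Tat, the other gene of that list, on 7. Across genes, the closest array to lean FXR-K217Q replicate 3 was a lean FXR-WT array (r = 0.988), and each obese FXR-K217R array was closest to an obese FXR-WT array. Lean FXR-K217Q replicate 3 and obese FXR-WT replicate 1 had much less Dbp, a clock-controlled transcription factor, than the other arrays of their groups, and results that rest on them are given with and without them. Levels are given as log2 of the normalized intensity, and changes as the first-named group's mean log2 level minus that of the other. A change passed where its adjusted p-value (limma, Benjamini-Hochberg over 15469 genes) was under 0.05. In bulk liver, fewer cells of a type and less RNA per cell cannot be told apart.

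Of the 8 genes, 3 gave no measurement. Cpt1a, the outer-membrane enzyme that commits fatty acids to mitochondrial oxidation, has 2 probes, and each was detected on 1 array, lean FXR-K217Q replicate 1 and obese FXR-WT replicate 2. The Vnn1 probe (vanin-1, a pantetheinase) was detected on 0 arrays. No probe has Cyp4a10, a fatty acid omega-hydroxylase, as its symbol. The other Pdk4 probe and the other Angptl4 probe were also detected on 0 arrays.

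Ppara, the receptor, read low in all groups: its raw intensity was 177 to 223, against medians of 130 to 143 over undetected probes. Its level was 6.19, 6.61 and 6.67 in obese FXR-K217R, 6.26, 6.59 and 6.18 in obese FXR-WT, 6.56, 6.24 and 6.49 in lean FXR-K217Q, and 5.59 and 5.90 in lean FXR-WT livers. Lean FXR-WT stood alone at the bottom. All 9 other arrays lay above both lean FXR-WT arrays, as 4.04% of all genes did, and the 3 other groups overlapped one another.

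Pdk4 encodes the kinase that switches off pyruvate dehydrogenase and so spares glucose while fat is burned. Its level was 9.03, 8.37 and 8.44 in obese FXR-K217R and 9.36, 9.08 and 8.47 in obese FXR-WT livers. It was 7.17, 6.46 and 8.35 in lean FXR-K217Q and 6.87 and 6.36 in lean FXR-WT livers. All 6 obese arrays lay above all 5 lean arrays, the nearest being lean FXR-K217Q replicate 3, at 8.35, just under obese FXR-K217R replicate 2, at 8.37. The share of all genes whose obese and lean arrays part this way is not given here. Of the 5 genes Pdk4 covered the widest range over the arrays, 2.99, a 7.95-fold spread.

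Angptl4 encodes a secreted inhibitor of lipoprotein lipase. Its level was 12.53, 13.06 and 12.83 in obese FXR-K217R, 12.65, 12.96 and 12.39 in obese FXR-WT, 11.75, 12.67 and 12.76 in lean FXR-K217Q, and 11.99 and 11.94 in lean FXR-WT livers. The obese arrays lay above both lean FXR-WT arrays, while lean FXR-K217Q held the lowest array of all and 2 arrays inside the obese range.

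Cyp4a14, a fatty acid omega-hydroxylase, ran the other way. Its level was 12.51, 12.75 and 12.62 in obese FXR-K217R, 12.70, 12.56 and 13.01 in obese FXR-WT, 12.54, 12.80 and 12.95 in lean FXR-K217Q, and 13.51 and 13.11 in lean FXR-WT livers. All 9 other arrays lay below both lean FXR-WT arrays, as 4.07% of all genes did, and the 3 other groups overlapped. Cyp4a genes are close paralogs, and whether the probe reads more than Cyp4a14 was not tested.

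Ehhadh, the bifunctional enzyme of peroxisomal beta-oxidation, was at 12.05, 10.91 and 11.42 in obese FXR-K217R and at 11.05, 11.13 and 11.67 in obese FXR-WT livers. Its level was 11.01, 10.80 and 9.93 in lean FXR-K217Q and 10.42 and 10.30 in lean FXR-WT livers. Of the 6 obese arrays, 5 lay above all 5 lean arrays, and obese FXR-K217R replicate 2, at 10.91, lay under lean FXR-K217Q replicate 1, at 11.01.

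**Figure D1:**
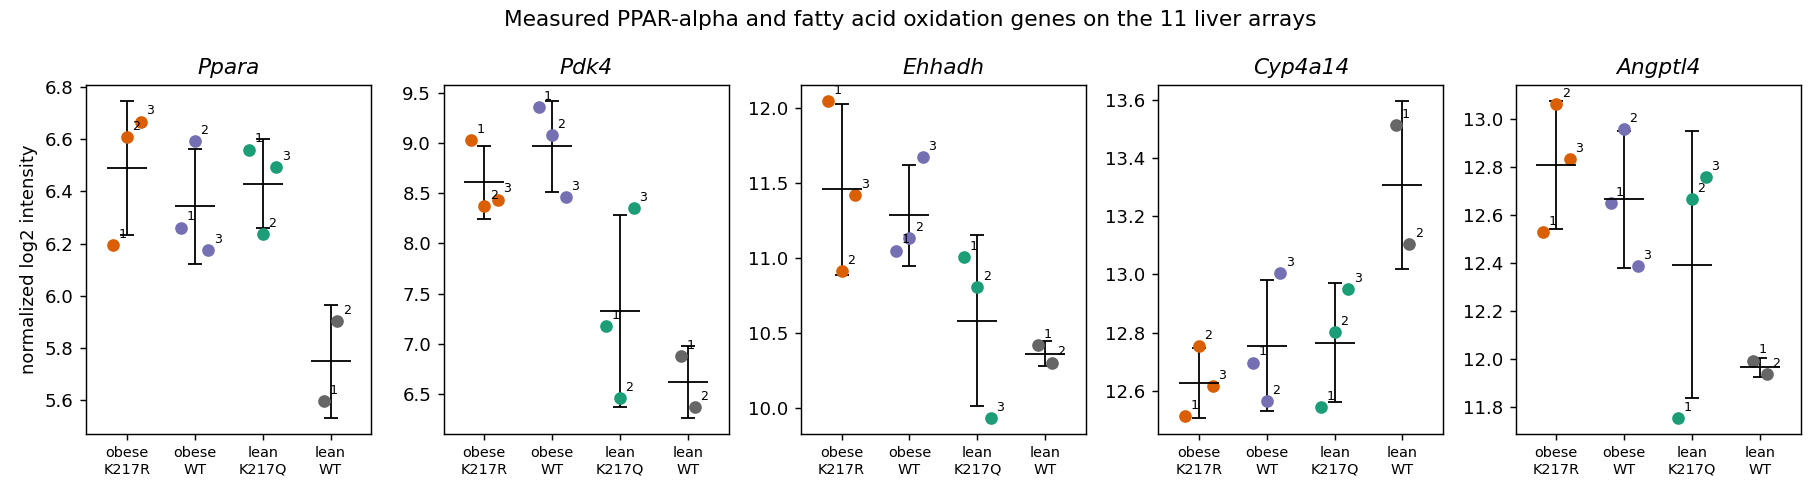
Normalized log2 intensity (vertical axis, a separate scale per gene) of the 5 measured genes on the 11 arrays, by group; numbers beside points are replicate numbers, and bars are the group mean and SD. Lean FXR-WT is lowest for Ppara and highest for Cyp4a14, and the 6 obese arrays lie highest for Pdk4.

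By mean level the groups ranked differently from gene to gene. For Ppara obese FXR-K217R (6.49) led, ahead of lean FXR-K217Q (6.43), then obese FXR-WT (6.34) and last lean FXR-WT (5.75), and among neighbours in it only the last were apart on every array. For Pdk4 it was obese FXR-WT (8.97), obese FXR-K217R (8.61), lean FXR-K217Q (7.33) and lean FXR-WT (6.62), with a gap only between obese FXR-K217R and lean FXR-K217Q. Angptl4 (12.81, 12.66, 12.39 and 11.96) and Ehhadh (11.46, 11.28, 10.58 and 10.36) both ran obese FXR-K217R, obese FXR-WT, lean FXR-K217Q, lean FXR-WT. Neighbours overlapped for Angptl4 throughout, and for Ehhadh they were apart only between obese FXR-WT and lean FXR-K217Q. The Pdk4 and Ehhadh gaps were narrow, 8.37 against 8.35 and 11.05 against 11.01. The share of all genes with such gaps is not given here. For Cyp4a14 lean FXR-WT led (13.31), apart from the other 3 groups, lean FXR-K217Q at 12.76, then obese FXR-WT at 12.75 and last obese FXR-K217R at 12.63, which overlapped.

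The genes also differed in how steady they were within groups. The pooled within-group SD was 0.61 for Pdk4, higher than for 98.2% of genes, and 0.47 for Ehhadh, higher than for 95.3%. It was 0.36 for Angptl4 (88.1%), 0.22 for Ppara (52.5%) and 0.21 for Cyp4a14 (48.0%). Pdk4 and Ehhadh thus varied more between replicates than nearly all genes, and Ppara and Cyp4a14 about as much as a middling gene.

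Obese FXR-WT livers were compared with lean FXR-WT livers to ask how obese and lean livers differ under the same receptor and agonist. Pdk4 was the measured target that rose, and the remaining 4 did not pass. The mean Pdk4 level was 8.97 ± 0.46 (SD, n = 3) with obesity and 6.62 ± 0.36 (SD, n = 2) in lean FXR-WT livers, a change of 2.35 (SE 0.47, 95% interval 1.31 to 3.38) or 5.09-fold, with limma's adjusted p = 0.0428. That is 1 of the 5 measured genes called, where 1.2% of all genes were called (185 of 15469). Every obese FXR-WT array lay above every lean FXR-WT array for Ppara, Pdk4, Angptl4 and Ehhadh, and below for Cyp4a14. Over all genes, 16.7% lay wholly above and 16.2% wholly below in this way.

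The other 4 genes changed by less than the test could call. Ehhadh differed by 0.92 (SE 0.36, limma adjusted p = 0.300), Angptl4 by 0.70 (SE 0.29, adjusted p = 0.323), Ppara by 0.60 (SE 0.19, adjusted p = 0.202) and Cyp4a14 by -0.55 (SE 0.18, adjusted p = 0.219). All 5 genes had an unadjusted p under 0.05, as 13.5% of all genes did. Their median change was 0.70, and that of all genes was 0.00 to 2 decimals.

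The Pdk4 call rests on few arrays. It was lost without any 1 of 9 of the 11 arrays, though the change stayed between 2.09 and 2.60. Adjusted p was 0.0564, 0.0652 and 0.0693 when obese FXR-K217R replicates 1, 2 and 3 were left out in turn, and 0.0916, 0.135 and 0.0696 for obese FXR-WT replicates 1, 2 and 3. It was 0.0614 for lean FXR-K217Q replicate 1, 0.123 for lean FXR-WT replicate 1 and 0.397 for replicate 2 of that group. Without background correction the change was 1.48, and Ppara's then fell to 0.21.

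**Figure D2:**
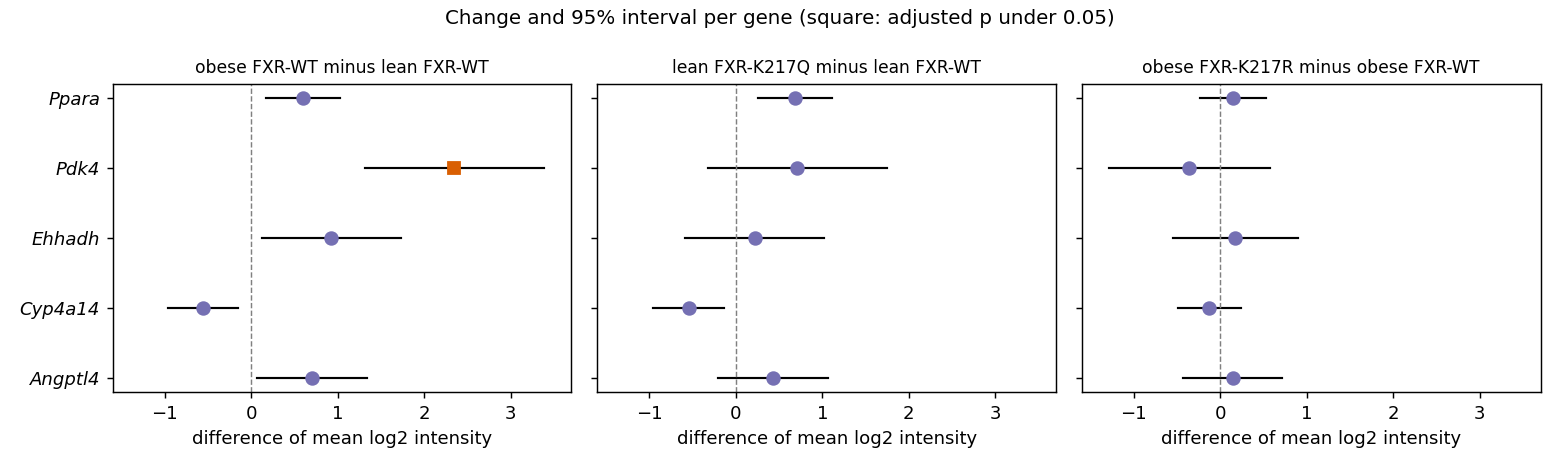
Difference of mean log2 intensity (horizontal axis) with its 95% interval for each measured gene in 3 comparisons; squares mark an adjusted p under 0.05. Pdk4 in obese against lean FXR-WT, at 2.35, is the single square, and the intervals of all 5 genes span 0 for obese FXR-K217R against obese FXR-WT.

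Around these genes, 75 others of PPAR-alpha signalling and fatty acid oxidation were measured, from 8 lists of 88 genes in all. The lists were chosen with earlier results of these data known, so counts over them, here and below, only describe these genes. In obese against lean FXR-WT livers 10 of the 75 rose and 0 fell by the adjusted test, where 1.2% of all genes were called. The median change of the 75 was 0.26, 53 were positive, and 39 lay wholly above and 10 wholly below lean FXR-WT. Over all genes 49.9% were positive, 16.7% lay wholly above and 16.2% wholly below. The list of other PPAR-alpha targets moved furthest: 7 of its 11 measured genes rose, Pdk4 among them, with a median of 1.40.

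Cidec, which enlarges lipid droplets, was at 11.52, 11.58 and 11.17 in obese FXR-WT and 7.75 and 7.09 in lean FXR-WT livers, a change of 4.003 (SE 0.25, limma adjusted p = 6.88e-05). Fgf21, a hepatokine that PPAR-alpha induces in fasting, was at 9.74, 8.47 and 7.97 in obese FXR-WT and 5.37 and 5.59 in lean FXR-WT livers, a change of 3.25 (SE 0.52, adjusted p = 0.0180). Plin2, a coat protein of lipid droplets (Adfp on the array), was at 12.47, 12.41 and 12.37 in obese FXR-WT and 11.23 and 10.80 in lean FXR-WT livers, a change of 1.40. The obese arrays thus lay above the lean ones for each of these genes. Acot2 (2.13), Acot1 (1.93) and Txnip (0.92) of the same list also rose. Acot genes encode acyl-CoA thioesterases and Txnip a thioredoxin inhibitor. Acot2 was detected on 1 of the 2 lean FXR-WT arrays, and its second probe changed by -0.27 (adjusted p = 0.629).

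Peroxisomal beta-oxidation gave 2 rises among 16 measured genes and a median of 0.36. Acot3, a peroxisomal thioesterase, was at 10.03, 10.09 and 10.52 in obese FXR-WT and 7.28 and 6.76 in lean FXR-WT livers, a change of 3.19 (SE 0.39, limma adjusted p = 0.00372), and Acot4 rose by 0.97. The Acot genes are close paralogs, and cross-reading between their probes was not tested. In the carnitine shuttle 1 of 7 rose: Slc22a5, the plasma membrane carnitine carrier, was at 11.03, 11.25 and 11.13 in obese FXR-WT against 10.24 and 10.21 in lean FXR-WT livers (0.91, adjusted p = 0.0360). Of its 2 other probes, 1 also passed (0.95, adjusted p = 0.0454 over single probes) and 1 changed by -0.11 (adjusted p = 0.837).

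Another 4 lists gave no call. Mitochondrial beta-oxidation had a median of 0.25 over 14 genes, with Eci1 (Dci on the array, an enoyl-CoA isomerase) at 0.50 and Eci2 (Peci) at 0.44. Omega-oxidation had a median of 0.14 over 8 genes, with Aldh3a2, which oxidises fatty aldehydes, at 1.15 (adjusted p = 0.0989). Fatty acid uptake and activation had a median of 0.08 over 10 genes, where Slc27a1, a fatty acid transporter, was at 0.91 and Acsl3, an acyl-CoA synthetase of lipid droplets, at -1.11. The receptor and its coregulators had a median of -0.32 over 10 genes, and Rxra, the partner receptor, was at -0.46 (adjusted p = 0.226).

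The pathway count depends on single arrays: it was 5 and 6 when obese FXR-WT replicates 2 and 3 were left out in turn. The count over all genes moved as well when single arrays were left out, so this is not particular to the pathway genes. Cidec, Plin2, Acot1 and Acot2 passed in all 11 such fits. Acot3 was lost in 1, Fgf21 in 3, Txnip in 4, Slc22a5 in 8 and Acot4 in 9, all of these without lean FXR-WT replicate 2. Without background correction Fgf21 changed by 1.72 (limma adjusted p = 0.0569) and Acot2 by 0.85.

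Markers of some other cells differed between groups. In obese against lean FXR-WT the marker lists of Kupffer, T and NK, endothelial, stellate, bile duct (cholangiocyte) and erythroid cells gave 0 calls. The summed intensity of 8 neutrophil genes was 2490.3 to 3783 in obese FXR-K217R, 11402 to 15896 in obese FXR-WT, 3586 to 5123 in lean FXR-K217Q and 4847 to 5253 in lean FXR-WT livers. By the adjusted test 4 of the 8 were higher in obese than lean FXR-WT, where 1.2% of all genes were called. In obese FXR-K217R against obese FXR-WT, where 0.0388% of all genes were called, 6 of these 8 neutrophil genes were lower. Their part in the results for the oxidation genes was not tested. Of 4 adipocyte genes, Adipoq, Plin1 and Retn were detected on 0 of 11 arrays. Cfd (adipsin) was detected on all, with an intensity of 521 to 2173 in obese FXR-K217R, 662 to 1090.4 in obese FXR-WT, 255 to 324 in lean FXR-K217Q and 181 to 187 in lean FXR-WT livers.

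**Figure D3:**
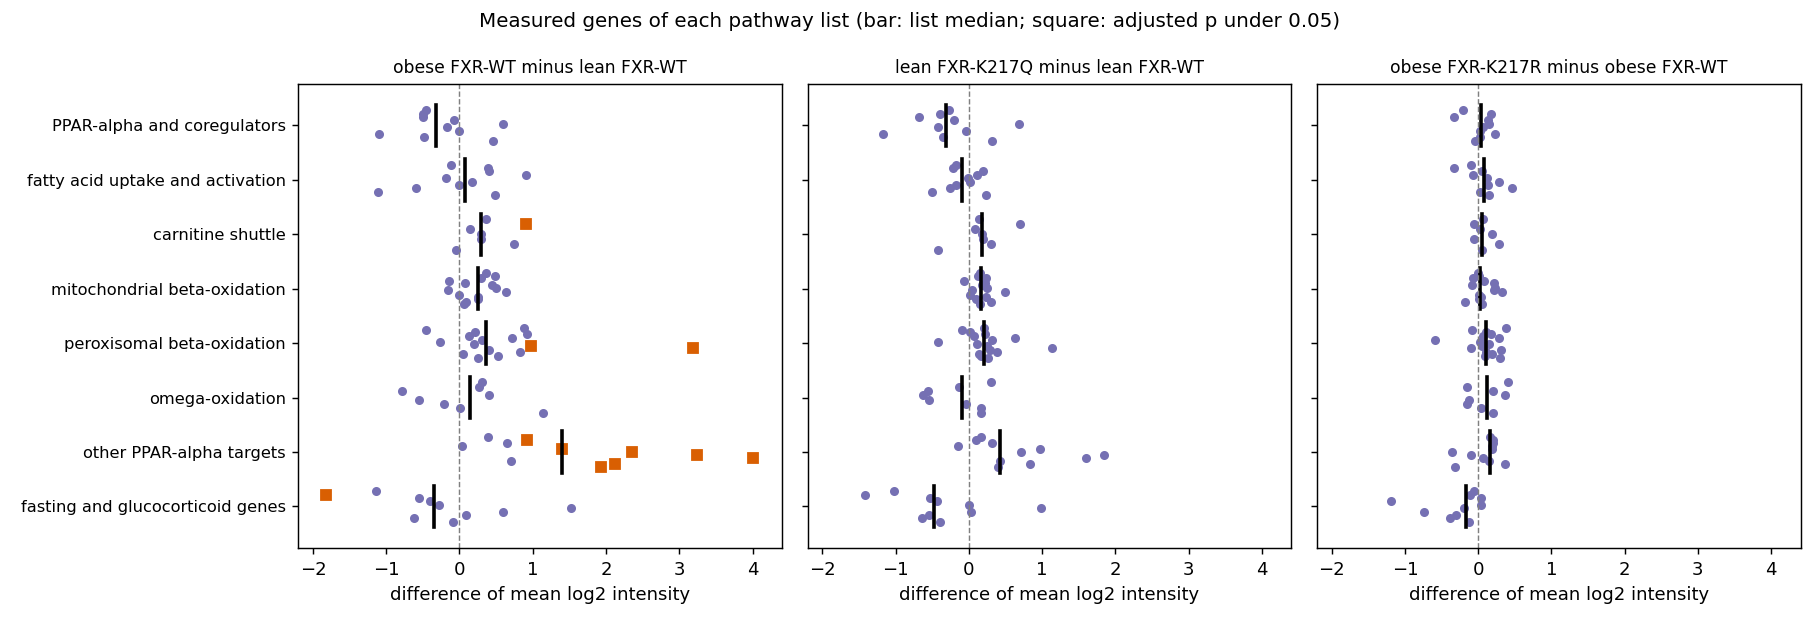
Difference of mean log2 intensity (horizontal axis) of every measured gene in 7 of the pathway lists and in the separate list of fasting and glucocorticoid genes, the 5 measured genes included, in 3 comparisons; black bars are list medians and squares mark an adjusted p under 0.05. Squares occur only in obese against lean FXR-WT, mostly among other PPAR-alpha targets (median 1.40), and the single square below 0 is Tat, in the list of fasting and glucocorticoid genes, at -1.82.

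Lean FXR-K217Q livers were compared with lean FXR-WT livers to ask what the acetylation mimic does without obesity. None of the 5 measured genes passed, and over all genes the adjusted test made 0 calls (0% of 15469), with 7.2% at an unadjusted p under 0.05. Ppara averaged 6.43 ± 0.17 (SD, n = 3) in lean FXR-K217Q and 5.75 ± 0.22 (SD, n = 2) in lean FXR-WT livers, a change of 0.68 (SE 0.19) with limma's unadjusted p = 0.00475 and adjusted p = 0.464. The Cyp4a14 means were 12.76 ± 0.21 (SD, n = 3) for lean FXR-K217Q and 13.31 ± 0.29 (SD, n = 2) for lean FXR-WT, which is a change of -0.54 (SE 0.18) with limma's adjusted p = 0.506. For these genes the arrays did not overlap, Ppara above and Cyp4a14 below. Over all genes, 10.3% were wholly higher and 12% wholly lower.

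For the other 3 genes the arrays overlapped. Pdk4 differed by 0.71 (95% interval -0.32 to 1.75), Angptl4 by 0.43 (-0.21 to 1.07) and Ehhadh by 0.22 (-0.58 to 1.02). The median over the 5 genes was 0.43, and it was 0.25 without lean FXR-K217Q replicate 3 and 0.62 without replicate 1. Without background correction the Ppara change was 0.24. This comparison uses the same 2 lean FXR-WT arrays as the comparison of obese with lean FXR-WT, so they share whatever is particular to those arrays.

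The 75 pathway genes gave 0 calls here, with 52 positive, a median of 0.15, and 19 wholly above and 7 wholly below lean FXR-WT. Over all genes 49.4% were positive, 10.3% wholly higher and 12% wholly lower. Cidec was at 9.20, 9.16 and 8.72 in lean FXR-K217Q and 7.75 and 7.09 in lean FXR-WT livers, a change of 1.60 with limma's adjusted p = 0.149. Plin2 differed by 0.97 (adjusted p = 0.149) and Fgf21 by 1.85 (adjusted p = 0.464), each with no overlap of arrays. Among oxidation genes Acot3 differed by 1.13, Slc22a5 by 0.69, Decr2 and Decr1, the reductases for unsaturated fatty acids, by 0.63 and 0.49, and Eci1 by 0.25. Lower values were those of Ppargc1a, the coactivator PGC-1 alpha (-0.68), Cyp4a31 (-0.62), Acsl3 (-0.50), Acacb, which makes the CPT1 inhibitor malonyl-CoA (-0.42), and Slc27a4 (-0.22). Adjusted p-values of these 10 genes ran from 0.406 to 0.822 in the limma fit.

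Obese FXR-K217R livers were compared with obese FXR-WT livers to ask what a receptor that cannot be acetylated at K217 does in obesity. No difference was detectable for the 5 genes: the arrays overlapped for every one, and limma's adjusted p was 0.993 for each. Over all genes 0.0388% were called (6 of 15469, all lower), and 4.41% had an unadjusted p under 0.05, as 0 of the 5 did. Arrays were wholly higher for 4.31% and wholly lower for 5.55% of genes.

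The intervals bound what could have been missed. The Pdk4 means were 8.61 ± 0.36 (SD, n = 3) for obese FXR-K217R and 8.97 ± 0.46 (SD, n = 3) for obese FXR-WT, a change of -0.36 (95% interval -1.28 to 0.57). Without obese FXR-WT replicate 1, the Pdk4 change was -0.16. Ehhadh differed by 0.18 (-0.54 to 0.89), Ppara by 0.15 (-0.23 to 0.53), Angptl4 by 0.14 (-0.43 to 0.71) and Cyp4a14 by -0.13 (-0.49 to 0.24). Ehhadh's change turned to -0.12 without obese FXR-K217R replicate 1, its highest array. The median over the 5 genes was 0.14, and -0.07 without that array.

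Over all genes 48.8% of changes were positive with FXR-K217R, 4.31% were wholly higher and 5.55% wholly lower. Of the 75 pathway genes 0 passed, 55 were positive and the median was 0.07, with 5 wholly above and 3 wholly below. Without obese FXR-WT replicate 1, 44 were positive and the median was 0.036, and it was 0.12 without replicate 2 or replicate 3 of that group and 0.11 without obese FXR-K217R replicate 2. The smallest unadjusted p belonged to Crot, which moves acyl groups from CoA to carnitine in peroxisomes: it was detected on 0 of 3 obese FXR-K217R and 3 of 3 obese FXR-WT arrays. Crot averaged 5.03 in obese FXR-K217R and 5.62 in obese FXR-WT livers, with limma's adjusted p = 0.481. With obese FXR-K217R set at the dimmest detected signal, Crot was at least 1.33-fold below obese FXR-WT, for this processing only. Over the alternatives run its change ranged from -0.63 to -0.17. The other genes named from these lists lay between -0.34 (Ppargc1a) and 0.46 (Acsl4, an acyl-CoA synthetase): Slc27a4 at -0.33, Rxra at -0.20, Retsat at 0.18, Crat at 0.19, Echs1 at 0.21, Cpt1b and Bdh1 at 0.29, Acot12 at 0.31, Decr1 at 0.32, Cyp4a31 at 0.36, Acot2 at 0.37 and Cyp4v3 at 0.41. Fgf21 differed by -0.10, and by 0.30 without obese FXR-K217R replicate 2 or 0.41 without obese FXR-WT replicate 1.

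The FXR-K217R change in obese livers was tested against the FXR-K217Q change in lean livers as a difference of differences. It was -1.07 for Pdk4 (95% interval -2.46 to 0.32), -0.54 for Ppara (-1.11 to 0.03), -0.29 for Angptl4 (-1.14 to 0.57), -0.05 for Ehhadh (-1.12 to 1.03) and 0.42 for Cyp4a14 (-0.13 to 0.96). None passed (limma adjusted p = 1.00 to 2 decimals for each), as 0% of all genes did, and the unadjusted p was under 0.05 for 0 of the 5 genes and 4.71% of all genes. Ehhadh's value turned positive, at most to 0.23, without any 1 of 5 arrays. Without lean FXR-K217Q replicate 3 and obese FXR-WT replicate 1 together, Pdk4's value was -0.36. The 75 pathway genes gave 0 calls and a median of -0.01.

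Within groups Pdk4 and Ehhadh did not always follow each other. In the lean FXR-K217Q group Dbp was at 12.87, 12.85 and 10.45 on replicates 1 to 3, and in the obese FXR-WT group at 10.74, 12.67 and 12.88. On lean FXR-K217Q replicate 3, Pdk4 was 1.03 above its group mean and Fgf21 0.54 above, while Ehhadh was 0.65 below. On obese FXR-WT replicate 1, Pdk4 was 0.39 above and Fgf21 1.01 above, while Ehhadh was 0.24 below. In these groups each was the highest array for Pdk4 and Fgf21 and the lowest for Ehhadh. The other arrays of these groups had higher Dbp. Deviations from a group's own mean balance out, so the low-Dbp array partly fixes theirs. On obese FXR-WT replicate 3, Pdk4 deviated by -0.50 and Ehhadh by 0.39. On lean FXR-K217Q replicate 2, Pdk4 deviated by -0.87 and Ehhadh by 0.22. In the obese FXR-K217R group, where Dbp varied from 12.71 to 13.27, replicate 1 was the highest array for Pdk4 (9.03), Fgf21 (9.36) and Ehhadh (12.05) alike. The part of clock state or hour of collection in these differences was not tested. In lean FXR-WT livers Dbp was at 11.32 and 11.71. Without obese FXR-WT replicate 1, the Dbp change in obese against lean FXR-WT grew from 0.57 to 1.25. Without lean FXR-K217Q replicate 3, that in lean FXR-K217Q against lean FXR-WT grew from 0.54 to 1.34. Leaving these arrays out thus does not even out Dbp between the groups compared. Without both low-Dbp arrays Pdk4 changed by 2.15 (limma adjusted p = 0.0156) and Ehhadh by 1.04 (adjusted p = 0.134) in obese against lean FXR-WT, and 18 pathway genes passed instead of 10. Over all genes 467 then passed instead of 185. In lean FXR-K217Q against lean FXR-WT, Pdk4 then differed by 0.20, Ehhadh by 0.55, Ppara by 0.65 and Cyp4a14 by -0.64, and none of them passed.

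**Figure D4:**
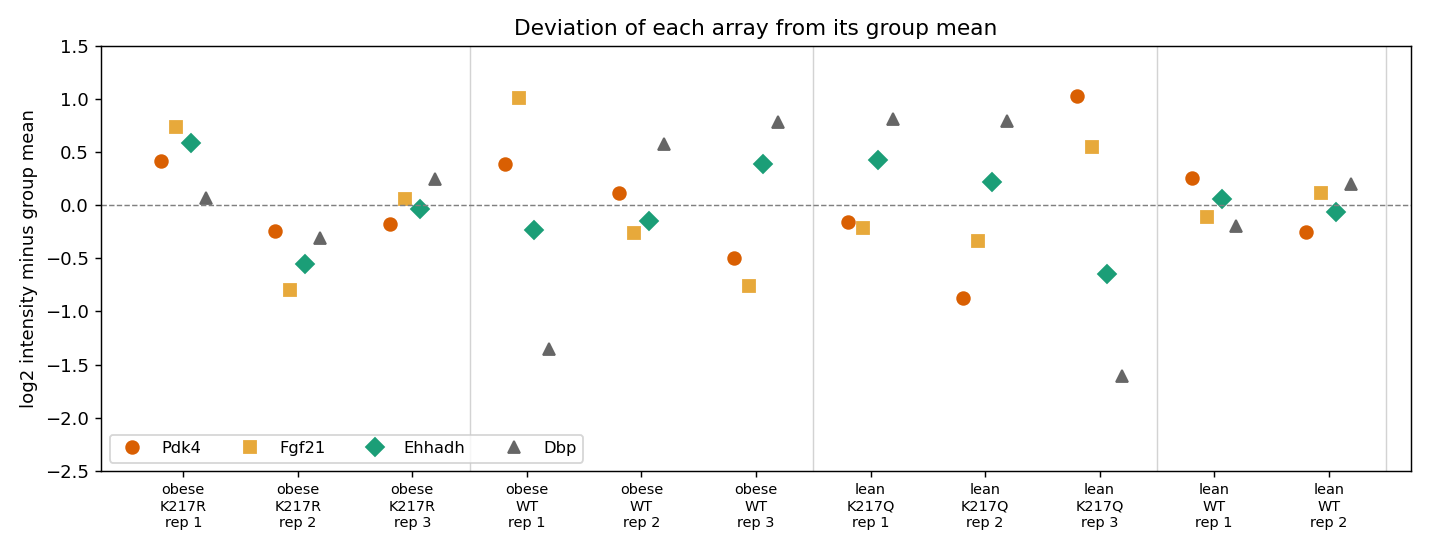
Log2 intensity minus the group mean (vertical axis) for Pdk4, Fgf21, Ehhadh and Dbp on each of the 11 arrays, with vertical lines between groups. Obese FXR-WT replicate 1 and lean FXR-K217Q replicate 3 hold low Dbp, with Pdk4 and Fgf21 above 0 and Ehhadh below 0.

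Of 10 measured genes of fasting and glucocorticoid action, a list apart from the 8 pathway lists, 1 fell in obese against lean FXR-WT. In that comparison 1.2% of all genes were called, and the median change of all genes was -0.00068. Tat, the tyrosine aminotransferase, was the gene that fell. It was at 5.69, 5.10 and 4.59 in obese FXR-WT and 6.58 and 7.33 in lean FXR-WT livers, a change of -1.82 with limma's adjusted p = 0.0288. Tat was detected on 1 of 3 obese FXR-WT and 2 of 2 lean FXR-WT arrays. Leaving out any of 4 arrays ended its call: adjusted p was 0.0953 and 0.0843 for replicates 2 and 3 of obese FXR-WT, and 0.0559 and 0.365 for replicates 1 and 2 of lean FXR-WT. The call also ended with the replicate block (0.0751) and with only the arrays compared (0.106), and without background correction the change was -0.68. The list median was -0.34 there, and -0.15 when obese FXR-WT replicate 3 was left out, -0.60 for replicate 1 of lean FXR-WT and -0.080 for its replicate 2. In lean FXR-K217Q against lean FXR-WT the median was -0.48 (-0.67 to -0.25 on leaving out each array), with Tat at -1.41 and Tsc22d3, the glucocorticoid-induced leucine zipper, at -1.03, and in obese FXR-K217R against obese FXR-WT it was -0.17 (-0.36 to 0.0019, the last without obese FXR-K217R replicate 1), with Pck1, the gluconeogenic enzyme, at -1.19 and Igfbp1 at -0.74. None of these passed. By limma's adjusted test 1.2% of all genes were called in obese against lean FXR-WT, 0% for FXR-K217Q and 0.0388% for FXR-K217R. The 9 measured clock genes gave 0 calls in each comparison. Their median was 0.24 in obese against lean FXR-WT, 0.13 for FXR-K217Q and 0.13 for FXR-K217R, and leaving out 1 array moved it to between 0.033 and 0.52, between -0.13 and 0.32, and between -0.022 and 0.22 in these comparisons, so the direction of the last 2 was not settled.

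For each of the 5 genes the most similar profiles over the 11 arrays were sought among 10643 genes by Pearson's r. These arrays share their groups, so r describes the profiles and was not tested. Nearest to Ehhadh were Zfand3 (r = 0.969) and Limk1 (0.968), and to Angptl4 Zfp162, now Sf1 (0.944), and Rab1 (0.924). Nearest to Pdk4 were Hist1h1c, now H1f2 (0.939), and Arsg (0.936), and to Ppara Plekha4 (0.911) and Ccdc45, now Cep95 (0.892). Cyp4a14 had the loosest matches, C9 (0.868) and Fmr1nb (0.865), and r with Fmr1nb was 0.65 without lean FXR-WT replicate 1. The 5 genes were mostly less alike than that: r over the arrays was 0.63 for Pdk4 with Angptl4, 0.52 for Pdk4 with Ehhadh, 0.23 for Ppara with Ehhadh and -0.80 for Ppara with Cyp4a14. Pdk4 with Fgf21 reached 0.90.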

How the data were processed

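Liver RNA was labelled as biotinylated cRNA, per the labels, and read on Illumina bead arrays. The deposited table gives a mean bead intensity per probe and array and a detection p-value, per the file headers. It also gives, per the file headers, the bead number and the bead standard error, a spread of signal over beads. The authors deposited normalized log2 values too, and the submitters' processing notes name limma 3.12.3. Their settings are not given in the sources used here, and these values differ by 0.0271 at most from those used here.

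Intensities were corrected and quantile-normalized with neqc (limma 3.58.1, R 4.3.3; background taken from the detection p-values, offset 16). Probes detected on at least 2 arrays were kept (21485), and of each symbol the probe with the highest mean. One linear model with group means was fitted per gene to all 11 arrays (lmFit, eBayes, two-sided tests), and p-values were adjusted by Benjamini-Hochberg over 15469 genes in each comparison. The procedure was tested on simulated data. Where a gene is detected on no array of a group, its fold is against the dimmest detected signal. Symbols are those of the deposited table, of which 9785 are current in the GRCm38.p6 gene table.

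The 8 genes and all lists were chosen with earlier results of these data known. Besides the 8 genes, Fgf21 and Dbp, the text names up to 3 genes per list and comparison past 5% FDR with the largest change, or else up to 2 with the smallest unadjusted p, and the 2 genes most like each of the 5. Acot1, Acot2, Txnip and Plin2 in obesity, as part of a count, and the cell markers were named after their values were seen. Some genes inside the pathway counts are not reported here. Alternatives were other backgrounds, filters, probe choices and fits, and leaving out arrays.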

Additional observations from a re-analysis of the deposited data

How the results depend on the processing

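The planned fit with the slide as a block was not run, since no header names slides. Counts of genes past 5% FDR moved most. For obese against lean FXR-WT it was 185 in the report, 110 with only those arrays, 102 with the replicate number as a block, 467 without lean FXR-K217Q replicate 3 and obese FXR-WT replicate 1 together, and 36 to 283 on leaving out each array. For FXR-K217R it was 6 in the report, 2 with only those arrays, 2 with probes detected on every array, 3 with the block, and 3 to 10 on leaving out arrays. For FXR-K217Q it was 2 without both low-Dbp arrays and 0 to 1 on leaving out arrays. For the difference of differences it was 1 with normexp at offset 50 and 1 with an intensity trend. The pathway count in obesity, for which the same alternatives were added after seeing the data, was 6 with only those arrays, 18 without both low-Dbp arrays and 4 to 12 on leaving out arrays.

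The median over the 5 genes for FXR-K217Q was 0.24 without background correction, 0.25 without both low-Dbp arrays and 0.25 to 0.62 on leaving out arrays. On leaving out arrays it was -0.070 to 0.14 for FXR-K217R, 0.55 to 0.75 for obesity and -0.47 to -0.14 for the difference of differences. The Ehhadh difference of differences turned to 0.17, 0.07, 0.01, 0.23 and 0.15 without lean FXR-K217Q replicates 1 and 2, lean FXR-WT replicate 2, obese FXR-K217R replicate 2 and obese FXR-WT replicate 3, and its FXR-K217R change to -0.12 without obese FXR-K217R replicate 1 (ranges over arrays left out, -0.37 to 0.23 and -0.12 to 0.45). Fgf21 with FXR-K217R turned to 0.41 without both low-Dbp arrays, 0.41 without obese FXR-WT replicate 1 and 0.30 without obese FXR-K217R replicate 2 (range -0.48 to 0.41). The Pdk4 call in obesity was also lost with no filter on dim probes (adjusted p = 0.0735) and with the replicate block (2.29, adjusted p = 0.0879). The r of deviations from group means ran from -0.39 to 0.23 over 15 same-numbered pairs and from -0.23 to 0.35 over 30 other pairs. Deviations in such small groups are tied to one another, so these values cannot tell whether the replicate number marks a batch. The other direction and threshold results of the 5 genes held under every alternative run. The cause of these shifts was not tested. Ppara's raw intensity, 177 to 223, lies near that of undetected probes (130 to 143).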
